A study of Homo sapiens with 12 samples.

Results

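HepG2 cells kept for 96 h in Plasmax-TE, a plasma-like medium made without trace elements, were set against HepG2 cells kept for the same time in EMEM. The comparison rests on 3 Plasmax-TE and 3 EMEM libraries, chosen by the medium in their labels, which are 6 of the 12 libraries of the study, and covers all genes measured. HepG2 is an established line derived from a human liver cancer, here of wild-type genotype. Plasmax is a culture medium whose nutrients follow the composition of human plasma, and Plasmax-TE is that medium with the trace elements left out. EMEM, Eagle's minimum essential medium, is a simpler mixture of salts, glucose, amino acids and vitamins in which the line was maintained. All cells were seeded in EMEM, moved to their medium after 24 h, given fresh medium after 48 h and harvested at 96 h. Both media held 10% heat-inactivated fetal bovine serum, which the labels do not describe as depleted of metals. The EMEM used to maintain the line also held 1 mM sodium pyruvate and 2 mM glutamine, and the labels do not say whether the media of the experiment did. Plasmax-TE and EMEM differ in many nutrients as well as in trace elements, and the parts of these cannot be told apart in this comparison. The other 6 libraries, 3 in complete Plasmax and 3 in Plasmax-TE with iron put back (Plasmax-TE+Fe), entered the estimate of the spread and are quoted beside some genes.

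Liver cells adjust their transcripts to what surrounds them through well-known routes. Sugar phosphates activate the transcription factors MondoA and ChREBP, which induce TXNIP and ARRDC4, a pair of arrestins that restrain glucose uptake. Hypoxia-inducible factors, which prolyl hydroxylases mark for destruction in a reaction that needs oxygen, iron and 2-oxoglutarate, induce glucose transporters and glycolytic enzymes. SREBP2 induces cholesterol synthesis when sterols are scarce, cytokines that act through STAT3 raise the acute-phase plasma proteins, and the zinc sensor MTF1 raises the metallothioneins.

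Messenger RNA was counted from its 3′ end (QuantSeq). Total counts ran from 1752389 to 2228520 in the Plasmax-TE libraries and from 1605043 to 2384090 in the EMEM libraries, so that 1 count was worth 0.425 to 0.641 CPM (counts scaled by TMM to a common library total). The hepatocyte markers ALB, AFP, TTR, TF, APOA1, APOB, HNF4A, KRT8 and KRT18 had at least 289 counts in each of the 6 libraries. Of 23 markers of stromal, endothelial and immune cells, 17 had no row among the genes analysed here, PECAM1, VWF, PTPRC and CD3E among them. Plasmax-TE replicate 1 stood apart from its group: its Spearman correlation with the others was 0.951 and 0.960, against 0.977 between those 2, while the EMEM pairs reached 0.971 to 0.975. On principal component 2 over all 12 libraries (17.6% of the variance) it lay at 35.5 and Plasmax-TE replicates 2 and 3 at 8.11 and 5.96, and named genes whose call ended without it are marked. Plasmax-TE+Fe replicate 2 also stood apart from its group on this component, at 32.0 against -3.78 and -4.67 for Plasmax-TE+Fe replicates 1 and 3. Both outlying libraries entered the estimate of the spread, and an alternative fit left them out together. Component 1 (34.1%) separated the Plasmax-TE libraries (-18.6 to -5.22) from the EMEM libraries (-33.5 to -27.2). The labels do not name separate cultures for the libraries of 1 medium, and p-values reflect the library-to-library spread, which may be technical.

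In Plasmax-TE 503 of 10459 genes (4.81%) differed from EMEM, 169 of them higher (1.62%) and 334 lower (3.19%). A gene was called when edgeR's quasi-likelihood test gave it a Benjamini-Hochberg adjusted p under 0.05, without a limit on fold change. Of the called genes 240 (2.29% of those tested) differed by at least 1 on the log2 scale, 86 higher and 154 lower, and 23 rose and 26 fell by at least 2. The 3 Plasmax-TE values did not overlap the 3 EMEM values in 2604 genes (24.9%), among them 499 of the called genes. Of the CPM of all genes tested, genes called lower made up 7.26%, 7.73% and 7.55% in Plasmax-TE libraries, against 13.1%, 12.7% and 13.3% in EMEM libraries. Genes called higher made up 3.84%, 3.44% and 3.55% against 2.17%, 1.99% and 2.13%. The genes were selected on these same libraries, so the direction of both differences was fixed by the calls. With the replicate number as a block the count was 941 over the 6 libraries alone (370 higher, 571 lower), and it was 828 when runs of library numbers were blocked in the 12-library model (304 higher, 524 lower). Leaving out 1 library gave 409, 293 and 352 calls without Plasmax-TE replicate 1, 2 and 3 and 292, 284 and 259 without EMEM replicate 1, 2 and 3, and no called gene changed sign under any alternative that tested it.

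**Figure D1:**
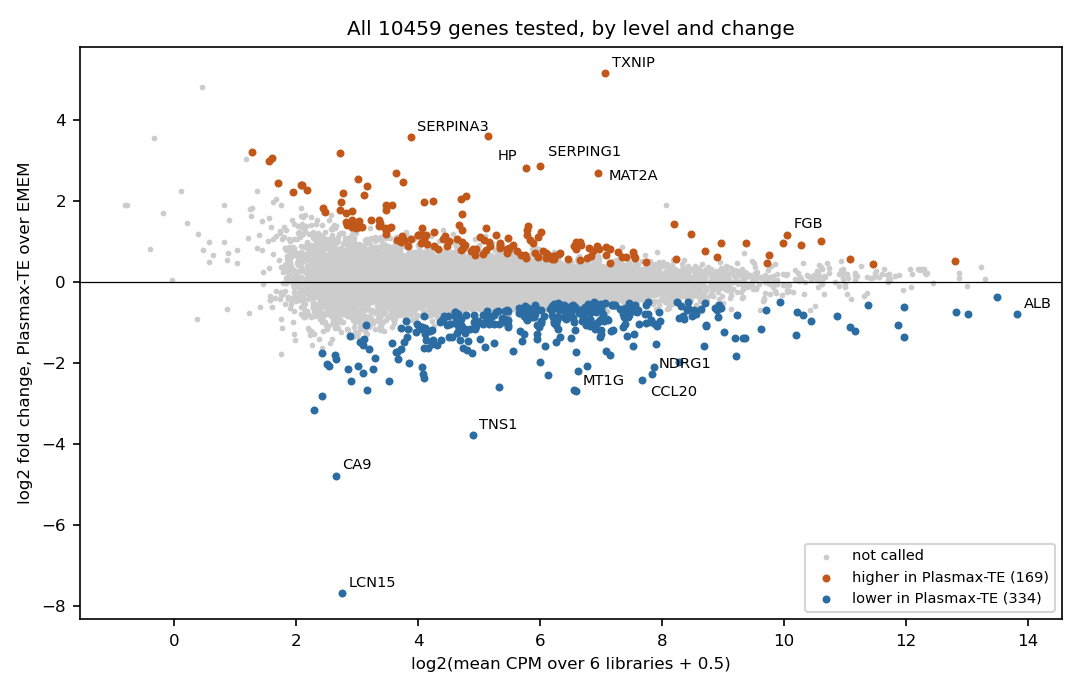
Each point is 1 of the 10459 genes tested, placed by log2 of its mean CPM over the 6 libraries plus 0.5 (x axis) and by its log2 fold change in Plasmax-TE over EMEM (y axis), with the 169 genes called higher in orange, the 334 called lower in blue and the rest in grey. TXNIP lies highest among the called genes at 5.15, and the fitted value of LCN15, which had no count in Plasmax-TE, depends on the prior count and is no measure of size.

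TXNIP (ENSG00000265972), the arrestin that restrains glucose uptake and binds thioredoxin, rose most of all genes at a mean of at least 5 CPM. It stood at 325, 245 and 212 CPM in Plasmax-TE replicates 1 to 3, against 5.77, 7.65 and 8.02 CPM in EMEM replicates 1 to 3, and libraries are given in this order throughout. The lowest Plasmax-TE library lay far above the highest EMEM library, a 35.6-fold difference (log2 5.15 ± 0.25, edgeR adjusted p = 6.6e-11). ARRDC4, its closest relative in function, had 3.25, 4.94 and 4.89 CPM in Plasmax-TE and 1.28, 0.425 and 0 CPM in EMEM. Over 26 counts against 3 this was an 8.83-fold difference with a 95% interval of 2.71 to 45.6 that covers counting error only. The call of ARRDC4 (edgeR adjusted p = 0.029) was lost without Plasmax-TE replicate 2 or 3 or EMEM replicate 2 or 3 or with limma-voom (adjusted p 0.0504 to 0.13), and the gene was not tested in the fits to the 6 libraries alone. KLF10, a transcription factor that responds to glucose in rodent liver, stood at 32.5, 37.7 and 38.0 CPM against 16.7, 12.3 and 12.7 CPM (log2 1.39 ± 0.25, edgeR adjusted p = 0.0019).

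Of the 10 measured genes on a list of arrestins and MondoA or ChREBP targets, these 3 rose and none fell, beside 1.62% higher over all genes tested. The median log2 fold change of the list was 0.44, beside 0.00291 over all genes tested. The factors themselves did not pass the test: MLXIP, which encodes MondoA, had a log2 fold change of -0.07 ± 0.16, and MLXIPL, which encodes ChREBP, had -0.36 ± 0.19. The fructose and glycerol enzymes KHK (-0.11) and GPD1 (-0.16) did not pass either.

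The promoters of TXNIP and ARRDC4 are shown because both genes rose and both windows hold the CACGNG letters of the sites that MondoA and ChREBP bind. Each is the 250 bases before a transcription start in RefSeq (GRCh38.p14), 5′ to 3′ on the gene's own strand, with CACGNG or its complement CNCGTG in capitals, where overlapping matches run together.
TXNIP (chr1:145996580-145996829, minus strand): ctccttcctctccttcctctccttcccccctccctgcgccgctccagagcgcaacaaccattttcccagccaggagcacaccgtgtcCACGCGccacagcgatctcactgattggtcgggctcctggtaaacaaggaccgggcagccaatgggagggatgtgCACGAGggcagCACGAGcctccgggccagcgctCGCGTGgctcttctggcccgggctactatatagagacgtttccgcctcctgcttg
ARRDC4 (chr15:97960453-97960702, plus strand): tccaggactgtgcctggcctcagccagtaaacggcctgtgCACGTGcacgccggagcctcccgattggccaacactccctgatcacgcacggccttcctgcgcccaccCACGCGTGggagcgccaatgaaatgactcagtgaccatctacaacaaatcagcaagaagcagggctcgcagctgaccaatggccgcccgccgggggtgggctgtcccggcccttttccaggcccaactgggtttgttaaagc
The TXNIP window held 4 matches, starting at -163, -88, -77 and -55 relative to the start, and the middle pair stood in tandem with a short spacer. The ARRDC4 window held 3, at -210, -142 and -140. A second annotated TXNIP start had no match in its own window. Of 27305 promoters of the same length, 26.5% held the letters on either strand, and so did 3 of the 7 list members with a promoter in the table. A match is a string of letters and was not tested for binding.

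**Figure D2:**
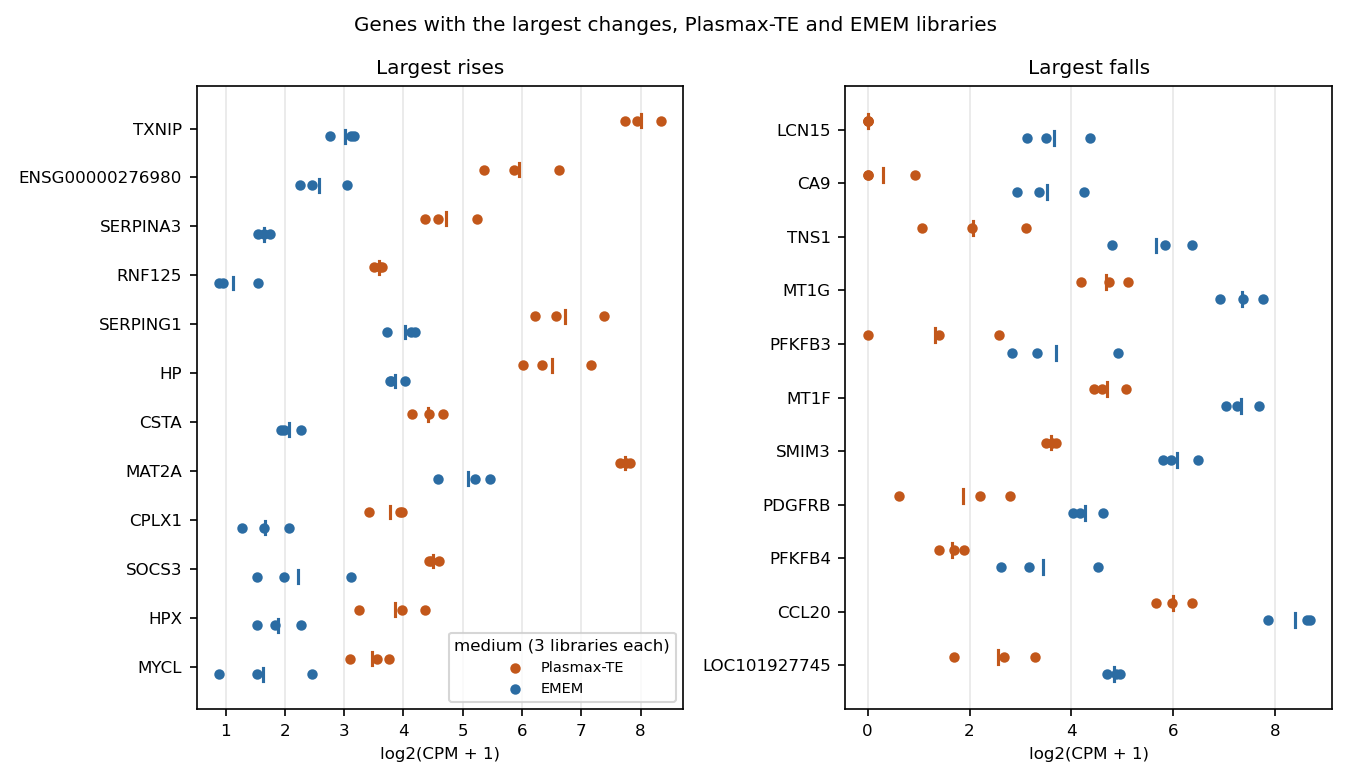
Levels of the 12 largest rises and 11 of the 12 largest falls among called genes that averaged 5 CPM or more and did not overlap between media, on log2(CPM + 1), with 1 point per library (Plasmax-TE orange and drawn above, EMEM blue, 3 each) and a bar at the mean of the 3 points. TXNIP stands at 212 to 325 CPM in Plasmax-TE and 5.77 to 8.02 CPM in EMEM, and LCN15 at 0 in the 3 Plasmax-TE libraries.

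Plasma proteins of the acute phase and complement were the group that rose most. Of 19 measured genes 12 rose and 1 fell, with a median log2 fold change of 1.01, beside 1.62% higher and 3.19% lower over all genes tested. The list held 31 genes, and CRP, SAA1, SAA2, LBP, C4A, C4B, CFB and C9 were among those not measured. SERPINA3 (ENSG00000196136), the protease inhibitor antichymotrypsin, had 36.8, 22.9 and 19.5 CPM in Plasmax-TE and 1.92, 2.13 and 2.36 CPM in EMEM, 11.9-fold higher (log2 3.57 ± 0.38, edgeR adjusted p = 8.3e-06). HP, the haemoglobin scavenger haptoglobin, had 142, 63.7 and 79.8 CPM against 15.4, 12.8 and 12.7 CPM (log2 2.81 ± 0.31, edgeR adjusted p = 1.1e-05). HPX, the haem scavenger haemopexin, had 19.5, 8.53 and 14.7 CPM against 3.84, 2.55 and 1.89 CPM (log2 2.37 ± 0.45). No EMEM library had more than 5 counts of SERPINA3 or 6 of HPX, so the size of both folds is uncertain. These 3 genes are among the largest rises, which were picked from genes without overlap between media. In all 3 replicate 1 was the highest of the Plasmax-TE group.

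The 3 fibrinogen chains moved together at much smaller folds. FGA had 2404, 2050.0 and 1761 CPM in Plasmax-TE and 1202, 805 and 1089 CPM in EMEM (log2 1.01 ± 0.18), FGB differed by 1.16 ± 0.20 and FGG by 0.92 ± 0.17. The largest edgeR adjusted p of the 3 was 0.0027. FGL1, a fibrinogen-like protein secreted by the liver, had 427, 412 and 446 CPM against 183, 150.1 and 143 CPM with little spread in either medium (log2 1.44 ± 0.14, edgeR adjusted p = 2.6e-06). ORM1 and ORM2, the acid glycoproteins orosomucoid 1 and 2, rose by 1.12 ± 0.21 and 0.72 ± 0.19, and the call of ORM2 was lost without Plasmax-TE replicate 2 or 3 or EMEM replicate 1, 2 or 3 (adjusted p 0.06 to 0.12). They are near-identical neighbours, like HP and its relative HPR, so the split of reads between such copies is uncertain.

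Among complement genes C5 and SERPING1 kept their calls with any 1 library left out, and C1R and C1S did not. The proteases that start the classical pathway, C1R and C1S, stood at 6.37 ± 3.87 and 16.8 ± 4.42 CPM in Plasmax-TE and 1.15 ± 0.625 and 4.48 ± 0.232 CPM in EMEM (SD, n = 3), log2 2.38 ± 0.62 and 1.90 ± 0.44. The call of C1R was lost without Plasmax-TE replicate 1 or EMEM replicate 1, 2 or 3 or with limma-voom (adjusted p 0.065 to 0.15), with a log2 fold change of 1.79 without Plasmax-TE replicate 1, and C1R was not tested in the fits to the 6 libraries alone. That of C1S was lost without Plasmax-TE replicate 2 or EMEM replicate 1, 2 or 3 (adjusted p 0.052 to 0.072). C5, the source of the terminal complex, rose by 1.17 ± 0.23 (edgeR adjusted p = 0.0047). SERPING1, the inhibitor of C1R and C1S, had 166, 93.8 and 73.8 CPM against 17.3, 16.6 and 12.3 CPM, 7.23-fold higher (log2 2.85 ± 0.33, edgeR adjusted p = 2.0e-05). C3, the central component, did not pass (log2 0.51 ± 0.15, edgeR adjusted p = 0.057). ENSG00000276980, an unnamed transcript that GENCODE places inside an intron of C3 on the same strand, had 97.9, 57.0 and 40.2 CPM against 4.49, 7.23 and 3.77 CPM (log2 3.61 ± 0.48, edgeR adjusted p = 1.2e-04). Its reads and those of unspliced C3 RNA cannot be told apart by these counts.

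The exception among the acute-phase genes was CP, the copper ferroxidase ceruloplasmin, which fell to 206, 140.1 and 119 CPM in Plasmax-TE, against 358, 335 and 263 CPM in EMEM (log2 -1.04 ± 0.25, edgeR adjusted p = 0.019). Its call was lost without Plasmax-TE replicate 2 or 3 or EMEM replicate 1 or 2 (adjusted p 0.074 to 0.095). SERPINA1, alpha-1-antitrypsin, had a log2 fold change of -0.05 ± 0.29 and ITIH3 one of -0.25 ± 0.21, and neither passed. SOCS3, the feedback inhibitor that STAT3 induces, had 21.1, 23.3 and 20.6 CPM in Plasmax-TE and 7.69, 2.98 and 1.89 CPM in EMEM (log2 2.47 ± 0.38, edgeR adjusted p = 5.3e-04). None of 12 measured interferon-stimulated genes was called by edgeR, DESeq2 or limma-voom, and 2 had an unadjusted edgeR p under 0.05. By edgeR 4.81% of all genes tested were called.

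**Figure D3:**
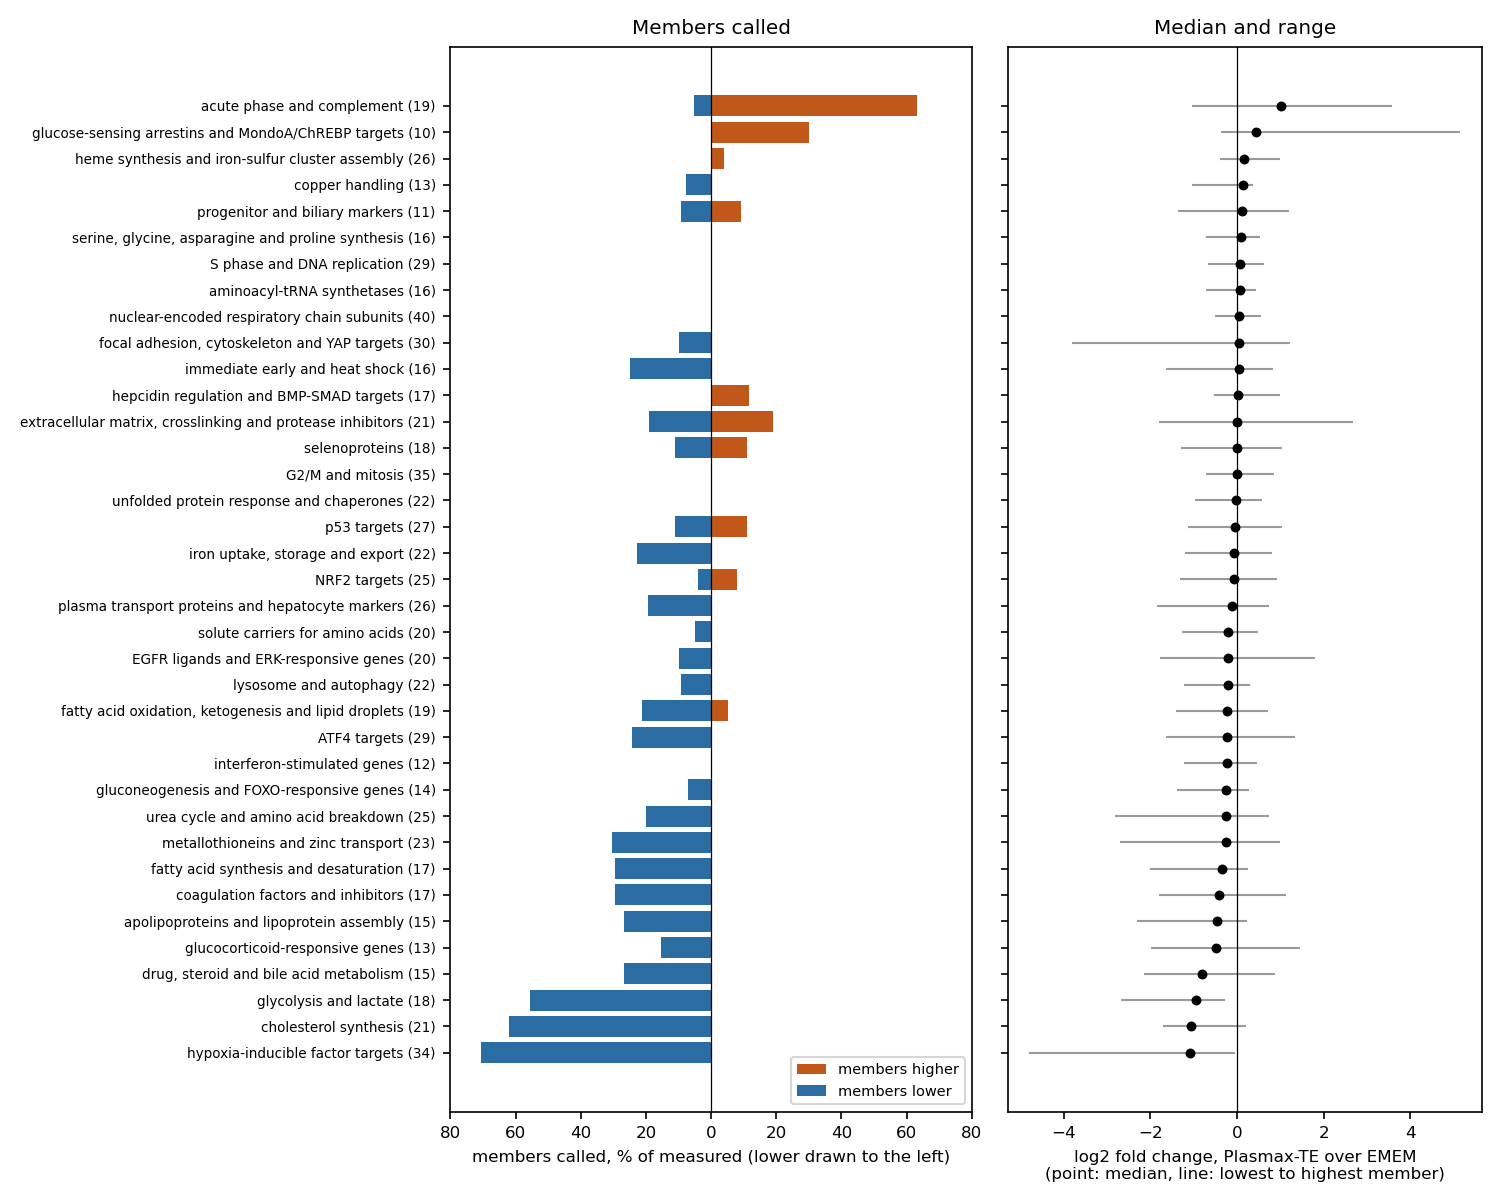
The left panel gives the share of measured members called higher (orange, right) and lower (blue, left) for each list with at least 10 measured members (number in brackets), and the right panel the median log2 fold change of Plasmax-TE over EMEM (point) with the range over members (line). Acute-phase and complement genes stand at the top with 12 of 19 higher, and hypoxia-inducible factor targets at the bottom with 24 of 34 lower.

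Targets of hypoxia-inducible factors were lower in Plasmax-TE than in EMEM. Of 34 measured genes 24 fell and none rose, beside 3.19% lower over all genes tested. The median log2 fold change of the list was -1.08, and no member had a value above 0. In the pairs of libraries with the same replicate number the median difference of log2(CPM + 1) over the list was -1.13, -1.19 and -0.80, beside medians of all genes between -0.013 and 0.012. CA9, the membrane carbonic anhydrase that is the usual marker of hypoxia, had 0, 0.898 and 0 CPM in Plasmax-TE and 17.9, 9.36 and 6.60 CPM in EMEM. With 2 counts against 64 the EMEM level was 31.4 times the Plasmax-TE level, with a 95% interval of 8.34 to 265 for counting error only (edgeR adjusted p = 9.9e-04). NDRG1, a stress-responsive gene of differentiation, fell to 68.7, 81.2 and 82.5 CPM, against 352, 533 and 248 CPM in EMEM, 4.88-fold lower (log2 -2.29 ± 0.23, edgeR adjusted p = 4.6e-06). The 3 Plasmax-TE values of NDRG1 were close together, and the EMEM values spread more widely but all lay above them.

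Among the 24 that fell were genes of several roles. EGLN3, one of the prolyl hydroxylases that hypoxia-inducible factors induce, stood at 1.98 ± 1.25 CPM in Plasmax-TE and 8.71 ± 4.56 CPM in EMEM (log2 -2.08 ± 0.57). Its call was lost without Plasmax-TE replicate 1, 2 or 3 or EMEM replicate 1 or 2 or with limma-voom or with the replicate block over 12 libraries or without Plasmax-TE replicate 1 when Plasmax-TE+Fe replicate 2 was left out as well (adjusted p 0.062 to 0.23), and it was not tested in the fits to the 6 libraries alone. EGLN1, the main oxygen sensor, did not pass (log2 -0.65 ± 0.23, edgeR adjusted p = 0.13). BNIP3 and BNIP3L, which mark mitochondria for removal, fell by 1.22 ± 0.21 and 1.48 ± 0.24 on the log2 scale. PDK1, the kinase that shuts pyruvate out of mitochondria, fell by 1.07 ± 0.25, a call lost without Plasmax-TE replicate 1 or 3 or EMEM replicate 2 (adjusted p 0.051 to 0.12). The collagen-modifying enzymes P4HA1, P4HA2, PLOD1, PLOD2 and LOX fell by 1.12 ± 0.21, 1.06 ± 0.20, 0.92 ± 0.16, 1.55 ± 0.24 and 1.74 ± 0.32. Members that did not pass included VEGFA (-0.22 ± 0.21), which drives vessel growth, ADM (-0.05 ± 0.38), a vasodilator peptide, and KDM3A (-0.26 ± 0.22), a histone demethylase. Without EMEM replicate 2 the list had 15 members called lower, without Plasmax-TE replicate 1 it had 19, and without each other library 17 to 21.

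The promoter of CA9 is shown for the core of the hypoxia response element, ACGTG or its complement CACGT, in capitals, in the 250 bases before its start (GRCh38.p14).
CA9 (chr9:35673678-35673927, plus strand): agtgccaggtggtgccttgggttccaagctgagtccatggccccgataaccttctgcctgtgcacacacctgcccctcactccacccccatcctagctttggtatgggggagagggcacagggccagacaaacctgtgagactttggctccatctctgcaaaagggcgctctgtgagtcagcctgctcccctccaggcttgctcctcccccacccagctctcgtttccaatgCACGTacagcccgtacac
The window held 1 match, at -18. The core occurred in 18.7% of 27305 promoters of this length and in 17 of the 28 measured hypoxia-inducible factor targets with a promoter in the table, 13 of them among the 20 such targets that were called. The list was assembled from known targets, so this share describes the list and is no test of it.

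Glucose uptake and glycolysis genes, many of which belong to both lists, fell in the same comparison. Of 18 measured genes 10 fell and none rose, beside 3.19% lower over all genes tested. The list had a median log2 fold change of -0.94 and no member above 0. SLC2A3, the high-affinity glucose transporter GLUT3, fell to 23.8, 40.0 and 40.7 CPM in Plasmax-TE, against 136, 240.3 and 110.4 CPM in EMEM (log2 -2.22 ± 0.30, edgeR adjusted p = 1.2e-04). SLC2A1, the transporter GLUT1, had 61.7, 250.0 and 302 CPM against 556, 707 and 586 CPM (log2 -1.59 ± 0.44, edgeR adjusted p = 0.039). Plasmax-TE replicate 1 was well below the other Plasmax-TE libraries for SLC2A1, but all 3 lay below the EMEM libraries. The call of SLC2A1 was lost without Plasmax-TE replicate 1 or 2 or EMEM replicate 1, 2 or 3 or with DESeq2 (adjusted p 0.077 to 0.15).

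Within the pathway, ALDOA, the main aldolase, had 357, 539 and 562 CPM in Plasmax-TE and 987, 1237 and 1037 CPM in EMEM (log2 -1.16 ± 0.18, edgeR adjusted p = 5.3e-04). HK2, the first enzyme, PGK1, the first that yields ATP, and the lactate exporter SLC16A3 fell by 0.97 ± 0.19, 1.02 ± 0.22 and 0.91 ± 0.16 on the log2 scale, and the call of PGK1 was lost without EMEM replicate 2 (adjusted p 0.067). LDHA, the lactate dehydrogenase subunit, differed by -0.72 ± 0.22 (edgeR adjusted p = 0.06), and GAPDH, GPI and PKM by -0.28 ± 0.15, -0.32 ± 0.19 and -0.68 ± 0.27, none of which passed. PFKFB3 and PFKFB4, whose product activates phosphofructokinase, stood lowest. PFKFB3 had 0, 4.94 and 1.63 CPM against 8.97, 29.3 and 6.13 CPM (log2 -2.68 ± 0.64, edgeR adjusted p = 0.017). PFKFB4 had 1.62, 2.24 and 2.71 CPM against 5.13, 22.1 and 8.02 CPM (log2 -2.44 ± 0.59, edgeR adjusted p = 0.017). EMEM replicate 2 was the highest for both, and the call of PFKFB3 was lost without Plasmax-TE replicate 3 or EMEM replicate 2 or with limma-voom (adjusted p 0.051 to 0.23) and that of PFKFB4 without Plasmax-TE replicate 1 or 2 or with limma-voom (adjusted p 0.0504 to 0.072). PFKFB4 was not tested without EMEM replicate 2 or 3. Without EMEM replicate 2 the glycolysis list had 5 members called lower, and without each other library 7 to 9.

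**Figure D4:**
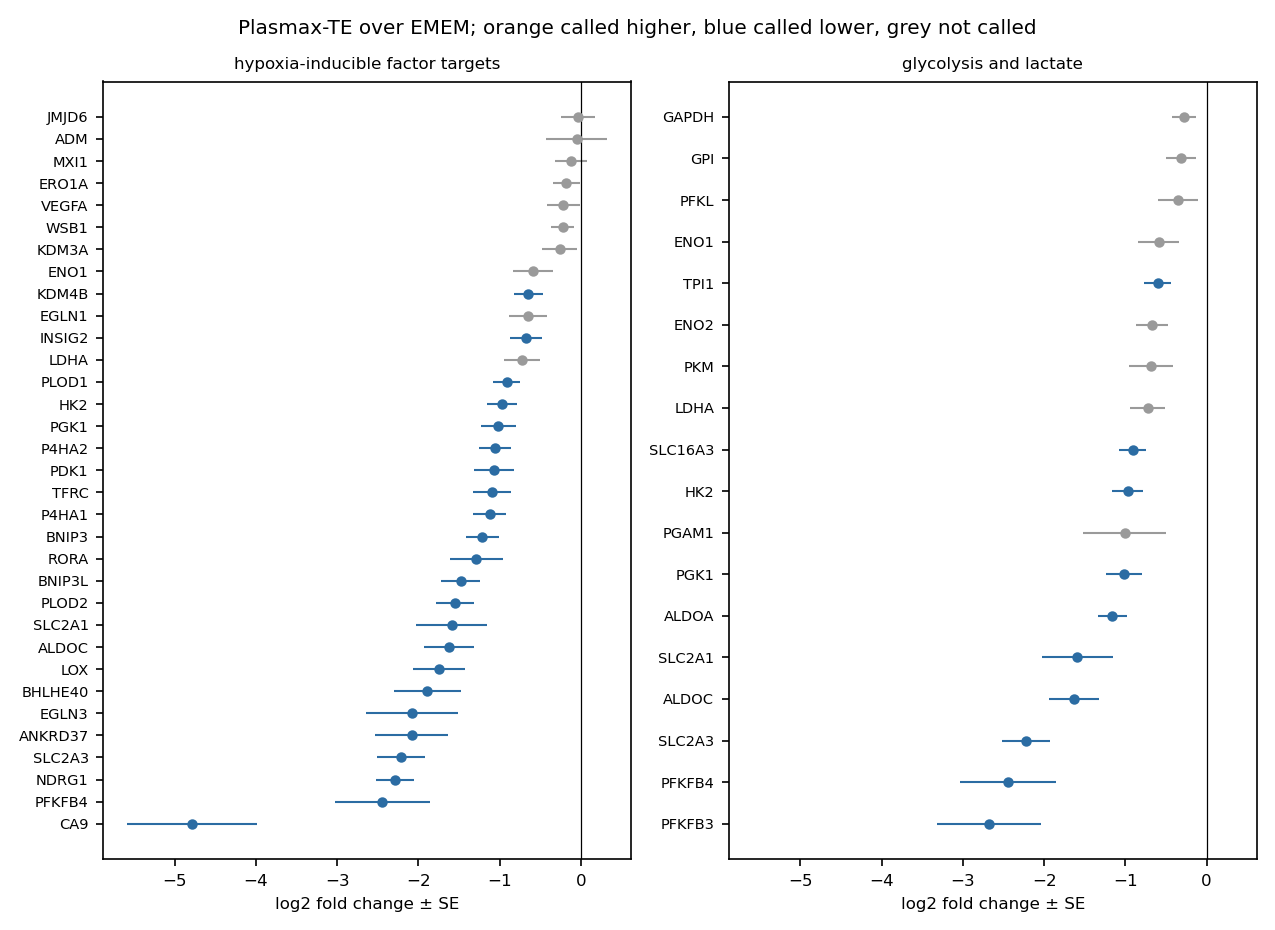
Log2 fold change of Plasmax-TE over EMEM (x axis, point) with its SE (line) for 33 of the 34 measured hypoxia-inducible factor targets on the left and the 18 measured glycolysis and lactate genes on the right, with genes called lower in blue and genes not called in grey. All points lie below 0, from -0.04 (JMJD6) to -4.79 (CA9) on the left.

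The cholesterol pathway was lower in Plasmax-TE at many of its steps. Of 21 measured genes 13 fell and none rose, beside 3.19% lower over all genes tested. The list had a median log2 fold change of -1.06, and leaving out any 1 library gave 11 to 13 calls. SQLE, squalene epoxidase, fell to 66.5, 65.5 and 88.5 CPM in Plasmax-TE, against 176, 190.1 and 174 CPM in EMEM (log2 -1.30 ± 0.22, edgeR adjusted p = 0.0012). MSMO1, a methylsterol oxidase, had 55.7, 47.6 and 68.9 CPM against 132, 128 and 135 CPM (log2 -1.20 ± 0.16, edgeR adjusted p = 1.3e-04). FDPS, farnesyl diphosphate synthase, had 60.6, 63.3 and 96.1 CPM against 154, 175 and 162 CPM (log2 -1.16 ± 0.19, edgeR adjusted p = 9.6e-04). In these 3 genes every Plasmax-TE library lay below every EMEM library, and 499 of the 503 called genes were likewise without overlap.

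Along the pathway the early enzymes HMGCS1, MVD and IDI1 fell by 1.08 ± 0.18, 1.46 ± 0.23 and 1.06 ± 0.20 on the log2 scale. FDFT1, squalene synthase, which commits the pathway to sterols, fell by 1.06 ± 0.16, and the late enzymes SC5D and DHCR7 by 1.04 ± 0.22 and 1.43 ± 0.20. The call of SC5D was lost without Plasmax-TE replicate 2 (adjusted p 0.06). SREBF2, which encodes the SREBP2 factor itself, fell by less (log2 -0.72 ± 0.18, edgeR adjusted p = 0.023), a call lost without Plasmax-TE replicate 2 or EMEM replicate 1 or 3 (adjusted p 0.096 to 0.12). NSDHL (-0.02 ± 0.29), TM7SF2 (0.07 ± 0.23) and PMVK (0.20 ± 0.25) did not pass.

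In fatty acid synthesis 5 of 17 measured genes fell and none rose, beside 3.19% lower and 1.62% higher over all genes tested. SCD, the desaturase that makes oleic acid, fell to 286, 292 and 349 CPM in Plasmax-TE, against 698, 740.4 and 753 CPM in EMEM (log2 -1.24 ± 0.14, edgeR adjusted p = 2.0e-05). The desaturases of polyunsaturated fatty acids, FADS1 and FADS2, fell by 0.81 ± 0.17 and 2.00 ± 0.31, and ACSS2, which makes acetyl-CoA from acetate, by 1.03 ± 0.22, a call lost without EMEM replicate 3 (adjusted p 0.057). PLIN2, the coat protein of lipid droplets, stood at 290.0, 339.8 and 341 CPM against 818, 850.1 and 858 CPM (log2 -1.38 ± 0.19) and FABP1, the fatty acid binding protein of liver, at 321, 339 and 400.1 CPM against 957, 849 and 989 CPM (log2 -1.40 ± 0.16). CPT1A, the gate of fatty acid entry into mitochondria, rose (log2 0.73 ± 0.17, edgeR adjusted p = 0.015), a call that was lost without Plasmax-TE replicate 2 or 3 or EMEM replicate 3 (adjusted p 0.055 to 0.11). Of the 19 measured genes of fatty acid oxidation, ketogenesis and lipid droplets it was the 1 that rose, and 4 fell. Without Plasmax-TE replicate 2 or 3 or EMEM replicate 2 or 3 only 2 of that list fell, and without EMEM replicate 3 only 3 of the synthesis list did.

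Several abundant secreted proteins of hepatocytes fell while the transcription factors of the lineage did not pass the test. Of 26 measured hepatocyte markers 5 fell and none rose in the fit to all libraries, beside 3.19% lower over all genes tested. The counts of the list were the same with any 1 library left out. TTR, the thyroxine and retinol carrier transthyretin, fell to 285, 264 and 230.2 CPM in Plasmax-TE, against 995, 979.8 and 807 CPM in EMEM (log2 -1.83 ± 0.15, edgeR adjusted p = 6.0e-07). AFP, alpha-fetoprotein, fell by 1.36 ± 0.14, TF, transferrin, by 1.21 ± 0.16, and AHSG, fetuin-A, by 0.79 ± 0.16 on the log2 scale. ALB, albumin, had 10833, 10415 and 10563 CPM against 17138, 17685 and 20308 CPM (log2 -0.79 ± 0.11, edgeR adjusted p = 1.8e-04). HNF4A, CEBPA and FOXA2 had log2 fold changes of -0.13 ± 0.15, 0.05 ± 0.30 and 0.17 ± 0.15. In bulk RNA fewer cells of a kind and less RNA per cell cannot be told apart.

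Of 15 measured apolipoprotein and lipoprotein genes 4 fell, APOA2 (log2 -0.75 ± 0.11) and LCAT (-1.04 ± 0.20) among them, and with the replicate block over the 6 libraries 7 did. For scale, 3.19% of all genes tested fell in the fit without a block. Of 17 measured coagulation genes 5 fell, among them F10 (-0.90 ± 0.18), TFPI (-0.70 ± 0.14) and A2M (-0.58 ± 0.13), and 12 did not pass. The call of A2M, a protease inhibitor, was lost without Plasmax-TE replicate 3 or EMEM replicate 1 or 3 (adjusted p 0.052 to 0.077). Leaving out Plasmax-TE replicate 3 or EMEM replicate 1 or 3 gave 3 calls. Drug and steroid metabolism had 4 of 15 measured genes lower, led by SULT2A1, the sulfotransferase of steroids, at 81.2, 91.6 and 104 CPM in Plasmax-TE and 276, 270.5 and 283 CPM in EMEM (log2 -1.58 ± 0.18, edgeR adjusted p = 1.3e-05). With the replicate block over the 6 libraries 7 of the 15 were lower, and without EMEM replicate 3 the number was 2. Amino acid breakdown and the urea cycle had 5 of 25 lower, among them ARG1, which splits arginine in the last step of the cycle (log2 -2.82 ± 0.53), and AGXT, which detoxifies glyoxylate (log2 -1.64 ± 0.27). There the replicate block over the 6 libraries gave 9 lower and 1 higher, and leave-one-out gave 2 to 5 lower. ARG1 was low enough for the 5 CPM filter to leave it out, so the size of its fold is uncertain. In the 16 alternatives that tested it ARG1 was called, at log2 fold changes of -3.07 to -2.51.

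Metal-binding and metal-handling genes did not move as 1 group. Among 23 measured metallothionein and zinc genes 7 fell and none rose, beside 3.19% lower and 1.62% higher over all genes tested. Of the 7, 5 were metallothioneins, small cysteine-rich proteins that hold zinc and copper. MT1G fell to 17.3, 25.6 and 33.7 CPM in Plasmax-TE, against 119.8, 165 and 214 CPM in EMEM (log2 -2.71 ± 0.28, edgeR adjusted p = 4.6e-06). MT1F had 23.3, 20.6 and 32.6 CPM against 152, 131 and 204 CPM (log2 -2.67 ± 0.23, edgeR adjusted p = 6.0e-07). MT1E, MT1X and MT1A fell by 1.38 ± 0.22, 1.21 ± 0.24 and 0.84 ± 0.23 on the log2 scale, and the call of MT1A was lost without Plasmax-TE replicate 1, 2 or 3 or EMEM replicate 2 or 3 or with library sizes alone or with limma-voom (adjusted p 0.051 to 0.18). MT2A had 637, 1306 and 1213 CPM against 1439, 1917 and 1758 CPM, with every Plasmax-TE library below every EMEM library, but did not pass (log2 -0.70 ± 0.23, edgeR adjusted p = 0.096); with the replicate block over the 6 libraries it did (adjusted p = 7.9e-04). The MT1 genes are near-identical neighbours, so reads may be shared or dropped among them. Of the zinc carriers SLC39A14, which also imports iron, fell by 0.81 ± 0.18 and SLC39A13 by 0.73 ± 0.18, whereas the exporter SLC30A1, itself a target of MTF1, had -0.26 ± 0.16 and MTF1 0.19 ± 0.28. The call of SLC39A13 was lost without Plasmax-TE replicate 2 or EMEM replicate 1 or 3 (adjusted p 0.068 to 0.12). Without EMEM replicate 3 the list had 4 genes called lower.

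Iron genes gave calls in uptake and transport, and the ferritin chains were not called. TFRC, the transferrin receptor whose messenger RNA is stabilised when cells lack iron and which hypoxia-inducible factors also induce, fell to 51.9, 75.9 and 88.5 CPM in Plasmax-TE, against 137, 173 and 152 CPM in EMEM (log2 -1.10 ± 0.23, edgeR adjusted p = 0.0068). FTH1 and FTL, the ferritin chains that store iron, had log2 fold changes of 0.14 ± 0.13 and 0.19 ± 0.17. The exporter SLC40A1 (ferroportin) had -0.37 ± 0.31 and the importer SLC11A2 had 0.11 ± 0.16, and none of these 4 passed. HAMP, the iron hormone hepcidin, had 47.1, 95.2 and 99.3 CPM in Plasmax-TE and 35.2, 42.5 and 59.4 CPM in EMEM, values that overlap between media (log2 0.81 ± 0.24, edgeR adjusted p = 0.056). Without Plasmax-TE replicate 1, the lowest of its group, the adjusted p of HAMP was 0.0029, and with the replicate block over the 6 libraries it was 0.0025.

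Across the 22 measured genes of iron uptake, storage and export 5 fell and none rose, TF, TFRC, SLC39A14, CP and NCOA4, the receptor that delivers ferritin to lysosomes. The call of NCOA4 (log2 -0.54 ± 0.13) was lost without Plasmax-TE replicate 2 or 3 or EMEM replicate 1 or 3 (adjusted p 0.056 to 0.092) and that of SLC39A14 without EMEM replicate 3 (adjusted p 0.081), and the list had 3 genes called lower without Plasmax-TE replicate 2 or 3 or EMEM replicate 1 or 3. Of 17 measured genes of hepcidin regulation 2 rose, FURIN and NEO1, beside 1.62% of all genes tested. FURIN, a protease that processes hepcidin, had 114, 121 and 148 CPM against 61.5, 48.1 and 83.5 CPM (log2 0.99 ± 0.21, edgeR adjusted p = 0.0076). NEO1, a co-receptor for bone morphogenetic proteins, rose by 0.97 ± 0.22 on the log2 scale. The call of FURIN was lost without EMEM replicate 2 (adjusted p 0.065) and that of NEO1 without Plasmax-TE replicate 1 or EMEM replicate 2 or 3 (adjusted p 0.075 to 0.087). ID1, ID3 and SMAD7, targets of the same signal, had log2 fold changes of -0.12 ± 0.19, 0.00 ± 0.24 and -0.41 ± 0.33 and did not pass. Haem synthesis and iron-sulfur cluster assembly had 1 call among 26 genes, beside 4.81% of all genes tested. It was FDXR, a reductase that feeds electrons to that assembly (log2 0.98 ± 0.22), and was lost without Plasmax-TE replicate 1 or EMEM replicate 2 or 3 (adjusted p 0.0503 to 0.073).

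Of 18 measured selenoproteins 2 rose and 2 fell, and of 13 measured copper genes 1, CP, fell. Over all genes tested 1.62% rose and 3.19% fell. GPX1, the cytosolic glutathione peroxidase, whose messenger RNA is known to decay when selenium is scarce, had 85.5, 75.0 and 68.4 CPM in Plasmax-TE and 37.8, 30.2 and 43.4 CPM in EMEM (log2 1.04 ± 0.17, edgeR adjusted p = 9.6e-04). GPX2, its gastrointestinal relative, rose by 0.73 ± 0.17 (lost without EMEM replicate 1 (adjusted p 0.1)). Of the secreted selenoproteins GPX3 stood at 32.5, 33.7 and 40.7 CPM against 68.6, 116 and 75.9 CPM (log2 -1.29 ± 0.20, edgeR adjusted p = 5.1e-04), and SELENOP, the selenium carrier of plasma, fell by 0.75 ± 0.19 (lost without Plasmax-TE replicate 1 or EMEM replicate 1, 2 or 3 (adjusted p 0.054 to 0.092)). The other 14 did not pass, with a list median of -0.000993, and GPX4 had 0.00 ± 0.18.

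**Figure D5:**
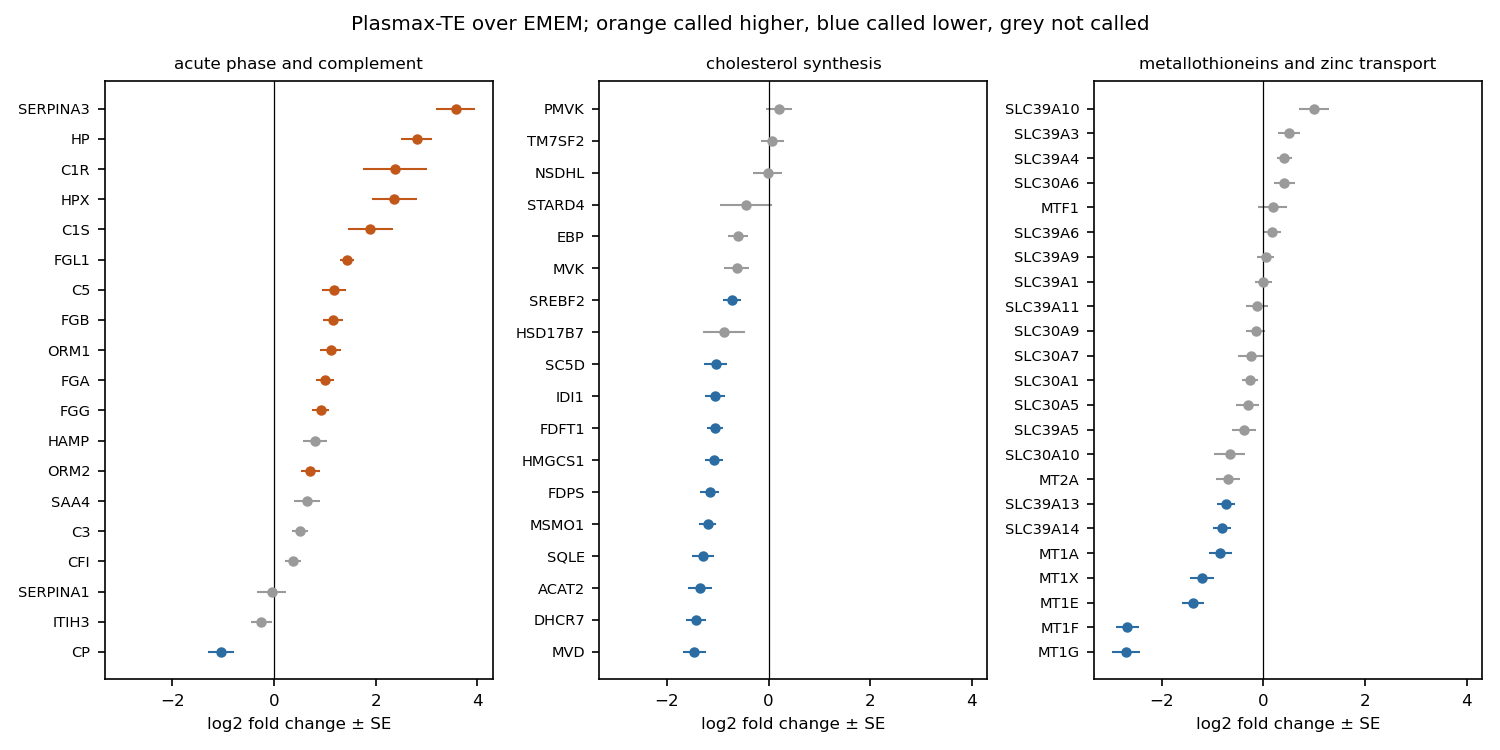
Log2 fold change of Plasmax-TE over EMEM (x axis, point) with its SE (line) for 19 acute-phase and complement genes, 18 of the 21 cholesterol genes and 23 metallothionein and zinc genes, with genes called higher in orange, called lower in blue and not called in grey. SERPINA3 leads the left panel at 3.57, MVD has the lowest value drawn in the middle panel at -1.46, and MT1F and MT1G lie at -2.67 and -2.71 on the right.

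The methionine and amino acid genes held a large single change and a group that depended on single libraries. MAT2A (ENSG00000168906), which makes the methyl donor S-adenosylmethionine and is known to be induced when methionine runs low, had 215, 201 and 225 CPM in Plasmax-TE and 42.9, 23.0 and 35.8 CPM in EMEM, 6.39-fold higher (log2 2.67 ± 0.33, edgeR adjusted p = 3.9e-05). Of 29 measured targets of ATF4, the factor of the amino acid and stress response, 7 fell and none rose, with a median of -0.22. GDF15, a secreted stress hormone, fell to 789, 1622 and 1657 CPM, against 3157, 2467 and 3252 CPM in EMEM (log2 -1.13 ± 0.24, edgeR adjusted p = 0.0077). SLC38A2, a glutamine and alanine carrier, fell by 0.96 ± 0.18, TRIB3 by 1.05 ± 0.24 and ATF3 by 1.64 ± 0.34 on the log2 scale. The call of TRIB3 was lost without Plasmax-TE replicate 2 or EMEM replicate 1 or 3 (adjusted p 0.071 to 0.09) and that of ATF3 without Plasmax-TE replicate 2 or EMEM replicate 3 (adjusted p 0.054 to 0.056). ASNS, asparagine synthetase, had 163, 417 and 585 CPM against 342, 144 and 319 CPM and did not pass (log2 0.54 ± 0.39, edgeR adjusted p = 0.5), with Plasmax-TE replicate 1 and EMEM replicate 2 the low libraries. The median difference of log2(CPM + 1) over the list was -0.78, 0.12 and -0.41 in the 3 pairs of same-numbered libraries. Without Plasmax-TE replicate 2 or EMEM replicate 3 the list had 2 calls, without EMEM replicate 1 it had 3, and without each other library 6 to 9. None of 16 measured aminoacyl-tRNA synthetases and none of 16 genes of serine, glycine, asparagine and proline synthesis was called by edgeR, beside 4.81% of all genes tested. At an unadjusted edgeR p under 0.05 there were 1 and 8 of them. DESeq2 called none of the synthetases and 3 of the synthesis genes, GLUL and GPT2 lower and GOT2 higher, and limma-voom called none and GLUL.

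Other genes at the ends of the list were single members of varied groups. RNF125, a ubiquitin ligase, had 10.3, 11.2 and 11.4 CPM in Plasmax-TE and 1.92, 0.851 and 0.943 CPM in EMEM (log2 3.17 ± 0.42), and CPLX1, a regulator of vesicle fusion, had 9.74, 14.4 and 14.7 CPM against 3.20, 2.13 and 1.41 CPM (log2 2.55 ± 0.41). No EMEM library had more than 3 counts of RNF125 or 5 of CPLX1, so the size of both folds is uncertain. CSTA, the protease inhibitor cystatin A, had 16.8, 20.6 and 24.4 CPM against 3.84, 2.98 and 2.83 CPM (log2 2.68 ± 0.32, edgeR adjusted p = 2.3e-05). MYCL, a relative of MYC, rose by 2.20 ± 0.47, and its call was lost without EMEM replicate 2 or 3 (adjusted p 0.052 to 0.068). The edgeR adjusted p of RNF125 and CPLX1 was 1.2e-04 and 7.2e-04.

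At the lower end TNS1 (ENSG00000079308), tensin 1, which ties integrins to the actin skeleton, had 7.57, 3.14 and 1.09 CPM in Plasmax-TE and 55.7, 81.7 and 26.9 CPM in EMEM (log2 -3.80 ± 0.45, edgeR adjusted p = 2.8e-05). The 3 libraries differed within each medium by several-fold, and lack of overlap between media was a condition for the largest falls, TNS1 among them. TNS1 was the outlier of its list, since 3 of 30 measured focal adhesion, cytoskeleton and YAP genes fell, none rose, and the median was 0.041. Beside this, 3.19% of all genes tested fell. LCN15, a secreted lipocalin, had no count in any Plasmax-TE library and 7.69, 19.6 and 10.4 CPM in EMEM, at least 8.18-fold lower against a floor of 3 counts per library (edgeR adjusted p = 2.3e-04). CCL20, a chemokine, fell to 49.2, 61.5 and 81.4 CPM, against 409, 231 and 391 CPM in EMEM (log2 -2.42 ± 0.38, edgeR adjusted p = 5.9e-04), and SMIM3, a small membrane protein, to 11.4, 10.3 and 11.9 CPM, against 60.9, 88.5 and 54.7 CPM (log2 -2.61 ± 0.25). PDGFRB, the receptor for platelet-derived growth factor and a marker of stromal cells, had 0.541, 3.59 and 5.97 CPM against 15.4, 17.0 and 23.6 CPM (log2 -2.45 ± 0.41, edgeR adjusted p = 0.0012). Of the 3 stromal, endothelial and immune markers tested, LYZ, lysozyme, fell as well (-0.84 ± 0.24, lost without Plasmax-TE replicate 1 or EMEM replicate 1, 2 or 3 or with the replicate block over 12 libraries (adjusted p 0.063 to 0.15)) and ACTA2 had 0.47 ± 0.21. Summed, these 3 stood at 773 to 1708 CPM in Plasmax-TE and 2217 to 2578 CPM in EMEM, nearly all of it LYZ, and COL1A1 had 3 to 8 counts in Plasmax-TE and 4 to 8 in EMEM. The part of other cell types in these values was not tested.

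Large cellular programmes gave no call, beside 4.81% of all genes tested. Among 29 measured genes of S phase and 35 of G2 and mitosis none passed in the 12-library fit without a block, with medians of 0.076 and -0.0054, and the same held for 40 nuclear-encoded respiratory chain subunits (median 0.045) and 22 genes of the unfolded protein response (median -0.021). At an unadjusted edgeR p under 0.05 the 4 lists held 2, 2, 5 and 3 genes, and DESeq2 and limma-voom called none. Between 1 and 3 members of each of these lists passed with the replicate block over the 6 libraries. Examples in that fit were FOXM1, a driver of mitosis (log2 0.87, edgeR adjusted p 0.0074), and COX6B1, a cytochrome oxidase subunit (log2 0.44, edgeR adjusted p 0.034). In the 12-library fit without a block their log2 fold changes were 0.84 ± 0.30 and 0.44 ± 0.16. A p above the threshold does not show that the media acted alike on these genes.

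The leading genes differed in how they stood in the other media, which share the EMEM or Plasmax-TE libraries with this comparison, so the values are given side by side and not as separate evidence. TXNIP had 599.8, 437 and 382 CPM in complete Plasmax, and Plasmax-TE was below it (log2 -0.86 ± 0.18, edgeR adjusted p = 0.0044). SERPINA3 and TNS1 differed between Plasmax-TE and Plasmax by 0.18 ± 0.26 and 0.03 ± 0.66 and did not pass there. MAT2A and SERPING1 were higher in Plasmax-TE than in Plasmax, by 2.10 ± 0.32 and 1.77 ± 0.30 (edgeR adjusted p = 3.0e-04 and 0.001), and differed from EMEM in Plasmax by 0.57 ± 0.34 and 1.08 ± 0.36. HAMP was higher in Plasmax-TE than in Plasmax by 3.52 ± 0.31 and lower in Plasmax than in EMEM (log2 -2.71 ± 0.32).

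The metallothioneins and hypoxia genes showed other orders. MT1G and MT1F were lower in Plasmax-TE than in Plasmax (log2 -1.87 ± 0.28 and -1.31 ± 0.24), and differed from EMEM in Plasmax by -0.84 ± 0.25 and -1.36 ± 0.21. With iron put back MT1G and MT1F differed from EMEM by -3.34 ± 0.29 and -3.82 ± 0.25. NDRG1 stood at 193, 206 and 158 CPM in Plasmax and 125, 97.0 and 154 CPM in Plasmax-TE+Fe, between the Plasmax-TE and EMEM libraries, and was lower in Plasmax-TE than in Plasmax (log2 -1.26 ± 0.23, edgeR adjusted p = 0.0016). SLC2A1 had 627, 831 and 758 CPM in Plasmax, with no call against EMEM (log2 0.26 ± 0.42), and was lower in Plasmax-TE than in Plasmax (log2 -1.85 ± 0.44, edgeR adjusted p = 0.01). CA9 was low in Plasmax as well (-0.55 ± 1.39 for Plasmax-TE minus Plasmax, edgeR adjusted p = 0.85). Over all genes, 2231 (21.3%) were called between Plasmax and EMEM, 1176 (11.2%) between Plasmax-TE and Plasmax, 1009 (9.65%) between Plasmax-TE+Fe and EMEM, and 27 (0.258%) between Plasmax-TE+Fe and Plasmax-TE.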

How the data were processed

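RNA of HepG2 cells in 4 media gave 12 QuantSeq 3′ libraries, 3 per medium. Named in the submitters' processing notes are FastQC 0.72, cutadapt 1.16, STAR 2.7.5b, featureCounts 1.6.3, limma 3.40.6 and hg19 (GRCh37), but no source used here gives the annotation counted against. The authors deposited raw, unnormalised counts per gene. Of 10994 entries 54 repeated an identifier with identical counts and were dropped. The third-highest library of each gene reached 4.04 CPM or more, so low genes cannot be described.

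In R 4.3.3, edgeR 4.0.16 was used with filterByExpr (minimum count 10, total 15, removing 481 of 10940 genes), TMM and a quasi-likelihood fit of 4 media over 12 libraries (8 residual degrees of freedom). Plasmax-TE minus EMEM was tested two-sided with Benjamini-Hochberg adjustment over 10459 genes. The SE is the absolute log2 fold change over the square root of F. An exact permutation test of 3 against 3 cannot go below p = 0.1. Scripts were tested on simulated data.

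The genes described and 39 gene lists were chosen with earlier results of these data known. Named are TXNIP, SERPINA3, TNS1, 6 iron genes, the 12 largest rises and 12 largest falls among called genes averaging 5 CPM or more without overlap between media, and the 5 lowest p of each list described. Other members were picked with values in view. Lists have counts and medians but no set test, and some of their members are not reported here.

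The labels do not say what a replicate number marks, so a pairing of the samples by it is uncertain. Deviations from the group means correlated at 0.164, 0.110 and 0.173 between same-numbered Plasmax-TE and EMEM libraries. Between differently numbered libraries they correlated at -0.145 to 0.00173. The replicate numbers of these 2 media coincide with 3 runs of library numbers. Calls come from the fit without a block unless a block is named. Alternatives were DESeq2 1.42.0, limma-voom (limma 3.58.1), RLE factors, plain library sizes, no filter, a 5 CPM filter, replicate and library-number blocks, the 6 libraries alone, each of these left out, and Plasmax-TE replicate 1 left out with Plasmax-TE+Fe replicate 2. Promoter sequences are from RefSeq.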

Additional observations from a re-analysis of the deposited data

How the results depend on the processing

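Of 17 alternatives, the counts of genes called moved by over 1.5 times under the replicate block over the 6 libraries (941, with 370 higher and 571 lower), the library-number block (828, with 304 higher and 524 lower) and the fits without Plasmax-TE replicate 2 (293) or EMEM replicate 1, 2 or 3 (292, 284 and 259), against 503, 169 and 334 in the unblocked fit. Leaving out 1 of the 6 libraries gave 259 to 409 calls, 62 to 132 higher, 197 to 277 lower and 184 to 238 at 1 or more on the log2 scale, against 240 with all libraries; these fits have fewer libraries. The replicate block over all 12 libraries gave 438 calls, RLE factors 504, library size alone 495 (212 higher), DESeq2 528, limma-voom 468, no filter 504, a mean of at least 5 CPM 483, the 6 libraries alone 621, and leaving out Plasmax-TE replicate 1 with Plasmax-TE+Fe replicate 2 656. None of the 192 genes followed changed sign where called. The replicate block over the 6 libraries, which tested 190 of them and not ARRDC4, ended no call among those and added 37. The replicate block over 12 libraries ended 4 and added 3, and LYZ (0.063), GSTZ1 (0.064) and PPARA (0.06, adjusted p) were among those lost. At totals of 1605043 to 2384090 counts per library, small changes of low genes could not be seen.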

Other observations

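Of 16 measured immediate early and heat shock genes 4 fell and none rose in Plasmax-TE against EMEM: JUN, a subunit of the AP-1 factor, had 35.2, 52.1 and 44.5 CPM in Plasmax-TE and 141, 104 and 99.5 CPM in EMEM (log2 -1.37 ± 0.19, edgeR adjusted p = 1.9e-04), and JUND, KLF6 and ATF3 fell by 0.94 ± 0.16, 1.19 ± 0.21 and 1.64 ± 0.34 on the log2 scale, ATF3 with a call lost without Plasmax-TE replicate 2 or EMEM replicate 3 (adjusted p 0.054 to 0.056). Of 20 measured EGFR ligands and ERK-responsive genes 2 fell and 18 were not called, and of 13 measured glucocorticoid-responsive genes 2 fell, beside 3.19% of all genes tested. DUSP6, the phosphatase that ERK signalling induces, fell to 194, 329 and 284 CPM, against 528, 574 and 613 CPM in EMEM (log2 -1.08 ± 0.19, edgeR adjusted p = 0.0016). SGK1, a kinase induced by glucocorticoids and by osmotic stress, had 24.9, 27.4 and 25.0 CPM against 83.9, 106 and 114 CPM (log2 -1.98 ± 0.22, edgeR adjusted p = 1.5e-05). EDN1, the vasoconstrictor endothelin, stood at 17.3, 60.6 and 45.1 CPM against 149, 175 and 203 CPM (log2 -2.09 ± 0.35), and RAB17, an epithelial trafficking GTPase, at 78.4, 103 and 83.6 CPM against 351, 389 and 402 CPM (log2 -2.10 ± 0.19). RNASET2, a lysosomal ribonuclease, had 123, 121 and 130.3 CPM against 494, 572 and 409.9 CPM (log2 -1.98 ± 0.17, edgeR adjusted p = 6.0e-07). EDN1, RAB17 and RNASET2 were chosen after their values were seen.

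Inhibitors of proteases and matrix genes moved in both directions, 4 of 21 measured genes higher and 4 lower. SPINK1, a trypsin inhibitor, had 63.8, 39.5 and 19.5 CPM in Plasmax-TE and 12.2, 9.36 and 8.49 CPM in EMEM (log2 2.05 ± 0.34, edgeR adjusted p = 9.6e-04), TIMP1 rose by 1.14 ± 0.25 (lost without Plasmax-TE replicate 2 or EMEM replicate 3 (adjusted p 0.059 to 0.073)) and SERPINE2 by 0.88 ± 0.20 (lost without Plasmax-TE replicate 2 or EMEM replicate 3 (adjusted p 0.061 to 0.084)), beside CSTA. FN1, fibronectin, fell by 0.39 ± 0.11, a call lost without any 1 of the 6 libraries or without Plasmax-TE replicate 1 when Plasmax-TE+Fe replicate 2 was left out as well (adjusted p 0.086 to 0.15). Of 27 measured p53 targets 3 rose and 3 fell, and of 25 NRF2 targets 2 rose, ABCC3, an organic anion exporter (log2 0.91 ± 0.19), among them, and 1 fell, AKR1C1, which has near-identical relatives (log2 -1.31 ± 0.28, a call lost without EMEM replicate 3 (adjusted p 0.056)). Over all genes tested 1.62% rose and 3.19% fell.

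Non-coding host genes of small nucleolar RNAs, chosen after their values were seen, were higher in Plasmax-TE in part. SNHG5 had 712, 840.3 and 1093 CPM in Plasmax-TE and 440.2, 408 and 504 CPM in EMEM (log2 0.97 ± 0.16, edgeR adjusted p = 8.1e-04), and ZFAS1 and GAS5 rose by 0.75 ± 0.13 and 0.57 ± 0.15, and the call of GAS5 was lost without any 1 of the 6 libraries (adjusted p 0.055 to 0.18). SNHG1, SNHG8, SNHG16, SNHG6 and SNHG12 had log2 fold changes of 0.67 ± 0.19, 0.48 ± 0.17, 0.34 ± 0.14, -0.08 ± 0.14 and -0.21 ± 0.22 and did not pass. Of 79 cytosolic ribosomal protein genes, whose transcripts share the 5′ terminal motif of these host genes, 2 rose, RPS12 (0.52 ± 0.13) and RPL37 (0.45 ± 0.12), and 69 had a value above 0, with a median of 0.15 on the log2 scale. Over all genes tested 1.62% rose, and the median was 0.00291. The call of RPS12 was lost without Plasmax-TE replicate 2 or 3 or EMEM replicate 1, 2 or 3 (adjusted p 0.054 to 0.12) and that of RPL37 without Plasmax-TE replicate 2 or 3 or EMEM replicate 1, 2 or 3 (adjusted p 0.095 to 0.17). SNORD13, a small nucleolar RNA gene, stood at 1020.3, 169 and 76.5 CPM against 152, 129.7 and 58.5 CPM, high in Plasmax-TE replicate 1 and overlapping between media (log2 1.90 ± 0.76, edgeR adjusted p = 0.18).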
